A study of Mus musculus with 40 samples.

Results

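The genes described here encode the enzymes that split glucose to pyruvate, make glucose anew from pyruvate, and take up fructose into the same path, together with the lactate dehydrogenases and the gate into the mitochondrion. Of 38 listed genes, 36 were followed by their symbols in 3 tables of mouse kidney RNA-seq counts that hold 55862, 55866 and 55866 gene names. The remaining 2, Pgk1 and Pgam1, were skipped because the same Control libraries carry different counts for them in the temporal and the therapy table. The counts under Pgk1 in the therapy table (9916, 9888, 10069 and 9138 in Control) stand under Pgam1 in the temporal table, so which name is right in which table is not known. Gapdh is not in the list.

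Kidneys of wild-type C57BL/6 mice were sequenced in 10 groups of 4 libraries after surgery with or without ischaemia-reperfusion injury (IRI), a model in which blood flow to the kidney is stopped and released. The temporal arm held unoperated kidneys (Control) and kidneys 6, 24, 48 and 72 h after reperfusion. In the therapy arm stood injured kidneys of animals given mesenchymal stromal cells of umbilical cord (UC-MSC) or of bone marrow (BM-MSC) straight after reperfusion, injured kidneys 6 h after reperfusion without cells (AKI), and the same 4 Control libraries. The labels give no time for the UC-MSC and BM-MSC kidneys, and the cells were primary cells with no modification named. A sham arm held kidneys 24 h after surgery without IRI (sham 24 h) and unoperated kidneys (sham control), whose columns are named only C1 to C4 and hold other counts than the Control columns of the same names. The treatment label of the sham 24 h samples reads IRI, against their source label; they were grouped by source label and title, and every sham value below rests on that choice. The labels do not say whether the 4 libraries of a group are 4 animals, so every p-value rests on the spread between libraries alone, and that spread may be technical.

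Glycolysis turns glucose into pyruvate in the cytosol and yields ATP without oxygen, and lactate dehydrogenase then recycles the cofactor that keeps the path running. Proximal tubule cells, the bulk of the renal cortex, are known for the opposite traffic: they burn fatty acids, make glucose from lactate and glutamine through Pcx, Pck1, Fbp1 and G6pc, and use fructose through Khk, while hexokinase activity is found mainly in more distal segments. Several steps are served by alternative isoenzymes from separate genes, so a tissue's isoenzyme mix can shift. Under low oxygen, the HIF transcription factors are known to raise many glycolytic genes in mammals.

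RefSeq start-site windows (250 bases before to 50 after each start, build GRCm38.p6) were found for 36 of 36 genes, 57 windows in all. The 4 printed here belong to the genes on which the time course turns: Hk2, the inducible hexokinase, called higher at 6, 24 and 48 h, Ldha, a textbook hypoxia gene that was not called higher in any comparison, and G6pc and Pck1, the last and the first committed steps of glucose production. Capitals mark ACGTG, the core that HIF binds, CACGTG, the E-box read by Myc and carbohydrate-response factors, and TGACG, the half-site of cAMP-response elements, each on either strand.
Hk2, chr6:82774405-82774704, minus strand: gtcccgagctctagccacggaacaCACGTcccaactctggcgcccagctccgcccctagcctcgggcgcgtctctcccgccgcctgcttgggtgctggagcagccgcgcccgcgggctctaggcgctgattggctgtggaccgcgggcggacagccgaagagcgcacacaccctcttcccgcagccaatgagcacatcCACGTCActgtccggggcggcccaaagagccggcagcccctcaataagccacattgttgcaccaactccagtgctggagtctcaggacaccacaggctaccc
Ldha, chr7:46845554-46845853, plus strand, 1 of 2 windows: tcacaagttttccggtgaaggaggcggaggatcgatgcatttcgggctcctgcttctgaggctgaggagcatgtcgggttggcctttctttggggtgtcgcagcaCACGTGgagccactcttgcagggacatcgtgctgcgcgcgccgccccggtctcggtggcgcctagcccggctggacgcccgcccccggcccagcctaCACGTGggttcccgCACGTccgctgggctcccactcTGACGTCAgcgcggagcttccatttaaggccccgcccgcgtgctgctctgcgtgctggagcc
G6pc, chr11:101367466-101367765, plus strand: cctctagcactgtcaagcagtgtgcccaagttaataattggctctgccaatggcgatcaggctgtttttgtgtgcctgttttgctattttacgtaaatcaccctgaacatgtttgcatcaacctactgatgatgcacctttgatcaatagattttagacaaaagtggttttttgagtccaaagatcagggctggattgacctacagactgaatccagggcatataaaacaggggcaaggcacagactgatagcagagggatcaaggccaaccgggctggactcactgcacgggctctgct
Pck1, chr2:173152823-173153122, plus strand: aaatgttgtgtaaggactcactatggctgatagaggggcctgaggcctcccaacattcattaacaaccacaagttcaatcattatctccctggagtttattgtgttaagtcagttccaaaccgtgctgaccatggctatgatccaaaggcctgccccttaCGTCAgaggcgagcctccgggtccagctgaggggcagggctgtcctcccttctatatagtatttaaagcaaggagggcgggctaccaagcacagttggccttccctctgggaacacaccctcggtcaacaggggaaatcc

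For Ldha, the window with the most ACGTG of its 2 was printed, so its number of matches follows from that choice. Over both strands, this Ldha window held ACGTG 5 times, CACGTG 2 times and TGACG 2 times. The other Ldha window, from chr7:46846832, held 0 ACGTG, 0 CACGTG and 1 TGACG. The E-box CACGTG reads the same on both strands and therefore holds ACGTG on each. The Hk2 window held 2 ACGTG and 1 TGACG, the Pck1 window 1 TGACG, and the G6pc window none of these letters. ACGTG stood in 21 of the 57 windows (36.8%), against 19.6% of 32851 windows of all genes, and 17 of the 36 genes had it in at least 1 window. CACGTG stood in 10 windows (17.5%), against 7.15% of all, and TGACG in 13 windows (22.8%), against 20.8%. A match of letters is a description of the window and not a bound site.

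Depth and composition differed between groups. Libraries held 14938484 to 16338711 counts in Control and 13313097 to 17533712 at 6 h, but 6696400 to 13517430 at 24 h, 5444724 to 7014133 at 48 h and 4640921 to 5366202 at 72 h. The therapy groups with injury held 12949029 to 18475869 counts, and the sham arm 26601247 to 37097091. Mitochondrial ribosomal RNA took 2.96% to 3.01% of counts at 72 h, against 0.181% to 0.221% in Control. A single gene, Cep85, held a larger share of the late libraries. It made up 0.0107% to 0.0135% of Control counts, 3.19% to 10.9% of the 48 h counts and 9.74% to 12.9% of the 72 h counts. Together, the 10 most abundant genes held 7.90% to 8.82% of Control counts but 25.8% to 29.3% of the 72 h counts. The 36 genes together took 0.545% to 0.590% of counts at 72 h, against 1.45% to 1.57% in Control. Repeated lines showed that the 24, 48 and 72 h columns were joined as 1 block and Control with 6 h as another, and that AKI came from another block than UC-MSC, BM-MSC and Control. What separates 2 such blocks cannot be told apart from how each was made. Every comparison of 24, 48 or 72 h, or of AKI, with Control crosses 2 such blocks.

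In 4 groups, 1 library stood apart from its group mates by the root mean square of log2 differences. IRI 6 h library 1 was at 0.778, with the other 3 at 0.484 to 0.505. AKI library 1 was at 1.28 (others 0.955 to 1.03), UC-MSC library 4 at 0.942 (others 0.691 to 0.832) and BM-MSC library 4 at 0.693 (others 0.535 to 0.570). Results that rest on these libraries are given with and without them. By the same measure, IRI 48 h (1.54 to 1.61), IRI 72 h (1.80 to 1.88) and sham 24 h (1.07 to 1.13) were spread widely as whole groups. The Control libraries of the temporal arm lay at 0.420 to 0.434. The cause of the wider spread was not tested. The labels of the AKI libraries name the same library numbers and time as IRI 6 h, although the counts of the 2 groups differ, so both are shown. In bulk tissue, fewer cells of a type and less RNA per cell cannot be told apart.

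Values are CPM, counts scaled to library size, after TMM scaling within a table, and differences are log2 fold changes ± SE with n = 4 in each group, called at an adjusted p under 0.05 (edgeR, quasi-likelihood; Benjamini-Hochberg over all genes tested). To compare levels between genes, CPM was divided by the exon length in kb. On that scale the most abundant genes in Control were Ldhb, the lactate dehydrogenase subunit of oxidative tissues (991 ± 38.4 CPM per kb, SD, n = 4), Fbp1, the fructose bisphosphatase of kidney and liver (721 ± 72.3), the cytosolic carboxykinase Pck1 (642 ± 89.2) and ketohexokinase Khk (508 ± 16.7). G6pc, which releases free glucose, stood at 168 ± 16.6 CPM per kb. Among the least abundant were Hk2 (0.762 ± 0.129), the neuronal enolase Eno2 (0.299 ± 0.0950) and Hk3, the hexokinase of blood leukocytes (0.223 ± 0.0968).

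After reperfusion, RNAs of the glucose-producing enzymes G6pc, Fbp1 and Pcx and of the fructose enzyme Khk fell and stayed low, while the isoenzyme genes Hk2, Pfkp, Eno2 and Eno3 rose at some or all times. At 6 h, 15 of the 36 genes were called, 7 higher and 8 lower, where 10.4% of all 16653 genes were called higher and 8.51% lower. At 24 h, 10 were higher and 17 lower (of all genes, 21.8% higher and 20.2% lower). At 48 h, 7 were higher and 19 lower (of all genes, 26.9% higher and 26.8% lower), and at 72 h, 5 and 18 (of all genes, 26.7% higher and 29.6% lower). The median log2 fold change of the 36 was 0.02, −0.01, −0.81 and −0.68 at these times, beside −0.07, 0.05, 0.01 and −0.04 over all genes.

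**Figure D1:**
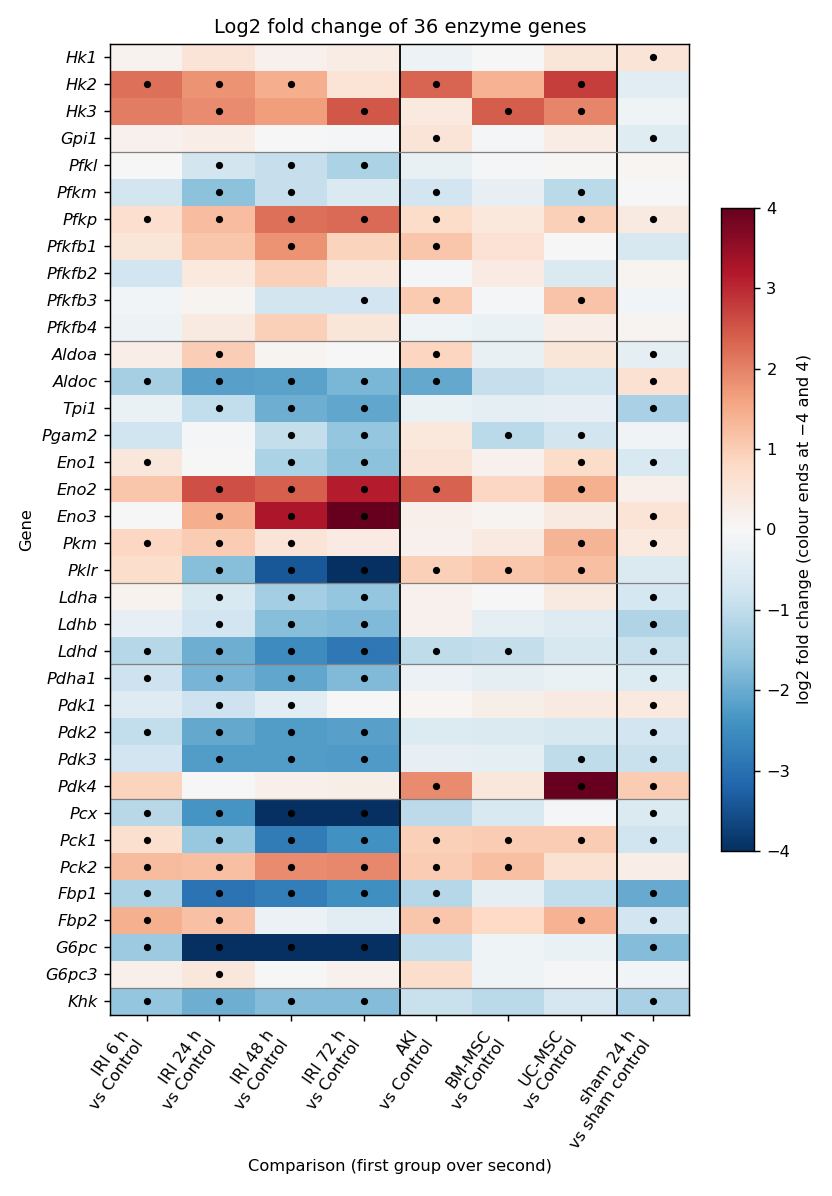
Log2 fold change (colour, ending at −4 and 4) of 36 enzyme genes (rows, ordered by their place in the path) in 8 comparisons (columns, first group over second), with a black dot where the adjusted p is under 0.05. The rows of Pcx, Fbp1, G6pc and Khk are blue at all 4 times after reperfusion, while those of Pfkp and Pck2 are red.

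Hexokinases trap glucose in the cell as glucose 6-phosphate. The inducible form, Hk2, rose at 6, 24 and 48 h. It had 5.16, 3.59, 5.19 and 4.26 CPM in Control, 35.6, 18.4, 13.4 and 17.3 CPM at 6 h and 15.7, 16.2, 14.7 and 16.5 CPM at 24 h. At 48 h it had 3.13, 9.77, 17.7 and 19.1 CPM and at 72 h 8.32, 5.13, 8.61 and 4.24 CPM. The 6 h and 24 h libraries lay wholly above Control, 1 library of 48 h lay below it, and the 72 h libraries overlapped it. The log2 fold changes over Control were 2.21 ± 0.43 (adjusted p = 0.00056), 1.79 ± 0.42 (0.001), 1.45 ± 0.42 (0.006) and 0.53 ± 0.43 (0.3). Without IRI 6 h library 1, the 6 h value was 1.85.

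The constitutive form, Hk1, was not called at any time, with log2 fold changes between 0.13 at 6 h and 0.53 at 24 h. It had 232, 122, 112 and 123 CPM at 6 h, where library 1 alone was raised, against 136, 135, 139.6 and 128 CPM in Control. Hk3 was near the limit of detection, with 0.701, 1.27, 0.900 and 0.419 CPM in Control, 5.41, 2.87, 2.92 and 2.40 CPM at 6 h and 2.08, 3.84, 2.27 and 4.21 CPM at 24 h. It had 5.79, 2.76, 0.659 and 1.39 CPM at 48 h and 6.35, 9.03, 1.40 and 1.65 CPM at 72 h. The 6 h libraries lay above Control without a call (2.03, adjusted p = 0.056), and it was called higher at 24 h (1.90 ± 0.73) and 72 h (2.47 ± 0.75), and the 24 h call was lost without Control library 1, 3 or 4 or IRI 24 h library 1, 2, 3 or 4. Neutrophil markers were read beside Hk3. Their summed CPM was 2.96 to 5.03 in Control, 51.7 to 455 at 6 h, 23.8 to 59.8 at 24 h, 31.5 to 64.3 at 48 h and 21.4 to 29.0 at 72 h. Their sum reached its highest value at 6 h, when Hk3 was not called. At 72 h, 4 of 4 tested markers were called higher, and their part in the Hk3 values was not tested. Gpi1, which makes fructose 6-phosphate, had 547 to 597 CPM in Control, 597 to 729 CPM at 6 h and 494 to 638 CPM at 72 h and was not called at any of the 4 times.

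Phosphofructokinase commits sugar to glycolysis and is built from liver (Pfkl), muscle (Pfkm) and platelet (Pfkp) subunits. The platelet subunit rose at every time while the other subunits fell at some. Pfkp had 57.1, 59.1, 57.0 and 57.4 CPM in Control, 130.4, 83.6, 75.3 and 75.5 CPM at 6 h and 110.1, 158, 132 and 141 CPM at 24 h. It had 221, 371, 207 and 269 CPM at 48 h and 265, 293, 271 and 279.7 CPM at 72 h, with every injured library above the highest of Control. The log2 fold changes were 0.66 ± 0.18 at 6 h, 1.23 ± 0.18 at 24 h, 2.21 ± 0.19 at 48 h and 2.27 ± 0.19 at 72 h (adjusted p = 8.9e-10). The 6 h call rested on library 1, without which it was 0.44 (adjusted p = 0.075).

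Pfkl had 109.7, 106, 107 and 112 CPM in Control, 55.3, 76.3, 65.6 and 63.9 CPM at 24 h and 69.8, 46.2, 33.4 and 31.5 CPM at 72 h. It fell at 24, 48 and 72 h (−0.73, −0.91 and −1.26), with no overlap at these times. Pfkm had 62.6, 64.5, 67.2 and 62.1 CPM in Control and 27.0, 40.0, 45.1 and 42.2 CPM at 6 h, all below Control without a call. It fell at 24 h (−1.63 ± 0.34) and 48 h (−0.93 ± 0.34) and was −0.59 and not called at 72 h, where its libraries spread over 49.7, 72.6, 38.3 and 8.95 CPM. The 48 h call was lost without IRI 48 h library 2.

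The 4 PFKFB genes make and break fructose 2,6-bisphosphate, the main activator of phosphofructokinase. They showed few calls in the time course. Pfkfb1, best known from liver and muscle, was called higher at 48 h (1.80 ± 0.63), a call lost without Control library 2 or 4. Pfkfb3, the inducible form with high kinase activity, was −0.10 and 0.10 at 6 and 24 h, not called, and lower at 72 h (−0.77 ± 0.32), a call lost without Control library 1, 3 or 4 or IRI 72 h library 1 or 2. Pfkfb2 and Pfkfb4 were not called at any time.

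Below the phosphofructokinase step, the aldolase genes split. Aldoa, the ubiquitous aldolase, had 2344, 2176, 2021 and 2037 CPM at 24 h, against 1033, 1064, 1172 and 1079.6 CPM in Control, with no overlap (0.98 ± 0.13, adjusted p = 1.8e-06). At 48 h it had 1127, 1044, 1141 and 1371 CPM, overlapping Control, and it was called neither then (0.11) nor at 72 h (0.03). The name Aldoa is carried by 2 gene IDs, whose counts were added, the second holding few reads. The brain-type aldolase Aldoc had 31.1, 25.4, 26.1 and 28.0 CPM in Control, 8.41, 12.9, 12.1 and 10.9 CPM at 6 h and 6.24, 7.03, 5.74 and 5.54 CPM at 24 h, all below Control. Its log2 fold changes were −1.32 ± 0.45, −2.17 ± 0.47, −2.13 ± 0.47 and −1.83 ± 0.47 at 6, 24, 48 and 72 h, and the 6 h call was lost in 8 of 8 fits that left out 1 library of Control or IRI 6 h.

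Triose phosphate isomerase, Tpi1, averaged 1105 ± 33.1 CPM in Control, 919 ± 23.2 CPM at 6 h, 561 ± 51.8 CPM at 24 h, 286 ± 33.0 CPM at 48 h and 259.9 ± 23.9 CPM at 72 h (SD, n = 4). It fell at 24, 48 and 72 h, with a log2 fold change of −2.09 ± 0.12 at 72 h (adjusted p = 1.8e-12). The muscle mutase Pgam2 had 30.3, 27.4, 29.2 and 32.3 CPM at 6 h, below the 47.9 to 54.6 CPM of Control without a call. It was called lower at 48 h (−0.96, a call lost without Control library 2 or IRI 48 h library 4) and at 72 h (−1.54 ± 0.37).

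The 3 enolase genes, which serve the step before pyruvate kinase, parted. Eno1, the general form, had 1748, 1561, 1430.3 and 1469.9 CPM at 6 h, against 1065, 1173, 1205 and 1129 CPM in Control, and was called higher (0.44 ± 0.12). At 72 h it had 426, 319, 359.7 and 347 CPM, all below Control, with a log2 fold change of −1.27 ± 0.12 at 48 h and −1.65 ± 0.12 at 72 h. Eno3, the muscle form, had 4.71, 5.14, 4.15 and 5.03 CPM in Control, 4.13, 5.79, 4.90 and 4.29 CPM at 6 h and 15.7, 11.8, 11.8 and 12.8 CPM at 24 h. It then had 43.8, 43.1, 48.1 and 45.8 CPM at 48 h and 73.1, 90.1, 71.9 and 87.6 CPM at 72 h, so that the ranges of Control, 24, 48 and 72 h did not touch. The log2 fold changes were 1.45 ± 0.18, 3.25 ± 0.19 and 4.08 ± 0.19 (adjusted p = 1.6e-13) at 24, 48 and 72 h.

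Skeletal muscle markers were read beside Eno3. Their summed level was 32.6 to 50.1 CPM at 72 h, against 1.73 to 4.05 CPM in Control, 1 of 3 tested was called higher at 72 h, and Acta1, Ckm, Tnnt3, Myh4 and Actn3 were at 0 in all 4 libraries of 72 h. Eno2 had 1.78, 0.845, 1.25 and 1.75 CPM in Control, 10.2, 7.42, 8.57 and 7.49 CPM at 24 h and 14.5, 5.95, 24.8 and 4.47 CPM at 72 h, all above Control. It rose by 2.57 ± 0.48, 2.40 ± 0.48 and 3.13 ± 0.49 at 24, 48 and 72 h, while neuron markers summed to 2.35 to 8.59 CPM in Control, 7.01 to 11.4 at 24 h and 20.9 to 60.00 at 72 h, with 4 of 5 called higher at 72 h. Their part in the Eno2 values was not tested.

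Pyruvate kinase forms pyruvate, from the Pkm gene in most tissues and from Pklr in liver, red cells and proximal tubule. Pkm had 396, 384, 354 and 378 CPM in Control, 1087, 551, 511 and 510.1 CPM at 6 h and 539.9, 879, 861 and 782 CPM at 24 h, all above Control. It rose at 6 h (0.81 ± 0.19), 24 h (1.02 ± 0.19) and 48 h (0.52 ± 0.19), and was 0.33 and not called at 72 h. IRI 6 h library 1 was the highest at 6 h, and without it the 6 h value was 0.47 (adjusted p = 0.017); the 48 h call was lost without Control library 2, 3 or 4 or IRI 48 h library 1, 2 or 4.

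Pklr went the other way. It had 31.3, 35.3, 37.6 and 34.4 CPM in Control, 54.5, 62.0, 51.7 and 55.7 CPM at 6 h and 12.6, 7.29, 11.5 and 10.9 CPM at 24 h. It had 6.88, 1.84, 4.22 and 0 CPM at 48 h and no count in any of the 4 libraries of 72 h. The 6 h libraries lay above Control without a call (0.69, adjusted p = 0.33), and the 24 h libraries lay below it (−1.71 ± 0.46). At 72 h it was at least 216-fold lower than in Control, taking a floor of 3 counts over the group (0.161 CPM) against the Control mean of 34.6 CPM, which covers counting error only.

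Lactate dehydrogenase joins pyruvate and lactate, with Ldha the subunit of glycolytic and Ldhb that of oxidative tissue. Both fell. Ldha had 986, 1025, 1079 and 973 CPM in Control, 1225, 1107, 1124 and 1045 CPM at 6 h and 335, 388, 315 and 368 CPM at 72 h, with log2 fold changes of 0.15 (not called), −0.60 ± 0.11, −1.37 ± 0.11 and −1.53 ± 0.11. Ldhb had 1529.9, 1597, 1612 and 1483 CPM in Control, 801, 1313, 1390.3 and 1401 CPM at 6 h and 544, 475, 393 and 417 CPM at 72 h, with −0.34 (not called), −0.77 ± 0.15, −1.70 ± 0.16 and −1.77 ± 0.16. The mitochondrial D-lactate dehydrogenase Ldhd had 1580.3, 1948, 2113 and 1651 CPM in Control, 572, 939, 893 and 925 CPM at 6 h and 303, 194, 297 and 206 CPM at 72 h, and it fell at all 4 times (−1.13 ± 0.18 at 6 h and −2.87 ± 0.19 at 72 h).

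The pyruvate dehydrogenase complex admits pyruvate to the citric acid cycle, and the kinases Pdk1 to Pdk4 switch it off. The catalytic subunit Pdha1 averaged 493 ± 22.7 CPM in Control, 279 ± 27.6 CPM at 6 h and 146 ± 22.1 CPM at 72 h and fell at all 4 times (−0.82 ± 0.14 at 6 h and −2.07 ± 0.14 at 48 h). Pdk2, the kinase of widest expression, had 346, 382, 404 and 392 CPM in Control, 159, 184, 222 and 212 CPM at 6 h and 91.8, 84.1, 98.7 and 93.8 CPM at 24 h, all below Control, and fell at all 4 times (−0.97 ± 0.15 at 6 h, −2.23 ± 0.16 at 48 h). Pdk3 had 81.3, 90.1, 89.5 and 82.7 CPM in Control, 17.2, 17.9, 19.55 and 18.1 CPM at 24 h and 10.9, 17.2, 9.21 and 33.9 CPM at 72 h and was called from 24 h on (−2.24, −2.22 and −2.27). At 6 h Pdk3 had 33.0, 54.0, 58.3 and 54.9 CPM, all below Control without a call.

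Pdk1, a hypoxia target in other tissues, was lower at 24 h (−0.82 ± 0.18) and 48 h (−0.44, a call lost without Control library 1 or 2 or IRI 48 h library 3 or 4). Pdk4, the kinase induced by fasting and fatty acids, was not called at any of the 4 times. It had 65.9, 43.2, 62.8 and 74.9 CPM in Control, 330.2, 46.3, 38.7 and 47.0 CPM at 6 h and 59.0, 68.5, 64.9 and 58.2 CPM at 24 h. It had 77.1, 114, 16.6 and 74.7 CPM at 48 h and 45.8, 92.3, 84.5 and 69.7 CPM at 72 h. Library 1 of 6 h lay far above Control and library 3 of 48 h far below it.

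The path back to glucose held some of the largest falls. G6pc, glucose 6-phosphatase, had 372, 408, 462 and 383 CPM in Control, 149, 141, 150.3 and 155 CPM at 6 h and 13.96, 8.18, 13.1 and 11.5 CPM at 24 h. It had 11.1, 13.5, 7.38 and 7.81 CPM at 48 h and 7.88, 15.0, 7.41 and 23.3 CPM at 72 h, so that Control, 6 h and the later times formed 3 separate ranges. The log2 fold changes were −1.45 ± 0.24, −5.12 ± 0.28, −5.36 ± 0.29 and −4.93 ± 0.29 (adjusted p = 0.00011, 1.4e-11, 1.5e-12 and 3.2e-12). Its ubiquitous relative G6pc3 did not fall and was called higher at 24 h (0.45 ± 0.15), a call lost without Control library 1 or IRI 24 h library 1.

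Fbp1, the renal fructose 1,6-bisphosphatase, had 1147, 1303, 1359 and 1101 CPM in Control and 308, 532, 612 and 573 CPM at 6 h. It had 146, 117, 191 and 176 CPM at 24 h, 159.6, 212, 164 and 184 CPM at 48 h and 205, 262, 196 and 238 CPM at 72 h. All injured libraries lay below Control, and the log2 fold changes were −1.28 ± 0.18, −2.96 ± 0.20, −2.77 ± 0.19 and −2.45 ± 0.19. The muscle form Fbp2 moved the other way early, with 80.7, 38.1, 34.6 and 37.0 CPM at 6 h, against 20.6, 19.9, 15.7 and 14.4 CPM in Control (1.43 ± 0.32, adjusted p = 0.003), and 1.18 at 24 h, when it was still called; without IRI 6 h library 1 the 6 h value was 1.05.

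Pyruvate carboxylase, Pcx, which opens the path in the mitochondrion, had 785, 918, 998 and 785 CPM in Control, 290.3, 443, 460.5 and 432 CPM at 6 h and 195, 104, 197 and 182 CPM at 24 h. It had 96.9, 37.96, 20.3 and 43.2 CPM at 48 h and 46.4, 67.1, 29.2 and 42.6 CPM at 72 h, all below Control. The log2 fold changes were −1.10 ± 0.31, −2.36 ± 0.33, −4.14 ± 0.36 and −4.23 ± 0.36 (adjusted p = 1.2e-09 at 72 h), and without IRI 6 h library 1 the 6 h value was −0.97 and not called (adjusted p = 0.059).

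The cytosolic and mitochondrial carboxykinases went apart. Pck1 had 1943, 2157, 2641 and 2063 CPM in Control and 2562, 2946, 4394 and 3930.3 CPM at 6 h, with 1 library of 6 h inside the Control range. It had 1159, 504, 691 and 745 CPM at 24 h, 337, 223, 406 and 311 CPM at 48 h and 425, 383, 393 and 440.3 CPM at 72 h. It was thus called higher at 6 h (0.65 ± 0.21, adjusted p = 0.034), a call lost without Control library 1, 2 or 4 or IRI 6 h library 3 or 4, and lower later (−1.51 ± 0.22, −2.79 ± 0.23 and −2.42 ± 0.22). Pck2 had 23.1, 27.7, 22.4 and 25.1 CPM in Control, 53.8, 65.2, 62.9 and 55.8 CPM at 6 h and 86.1, 83.7, 112 and 93.7 CPM at 72 h, and rose at all times, by 1.27 ± 0.13, 1.19 ± 0.13, 1.90 ± 0.13 and 1.93 ± 0.13.

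Ketohexokinase, Khk, the entry of fructose, had 907, 945, 923 and 874 CPM in Control and 229, 321, 353 and 346 CPM at 6 h. It had 239.6, 196, 272 and 239 CPM at 24 h and 294, 284, 241 and 289 CPM at 72 h. All injured libraries lay below Control, and the log2 fold changes were −1.55 ± 0.16, −1.95 ± 0.16, −1.74 ± 0.16 and −1.72 ± 0.16. The change from 6 to 24 h was −0.40 and not called.

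**Figure D2:**
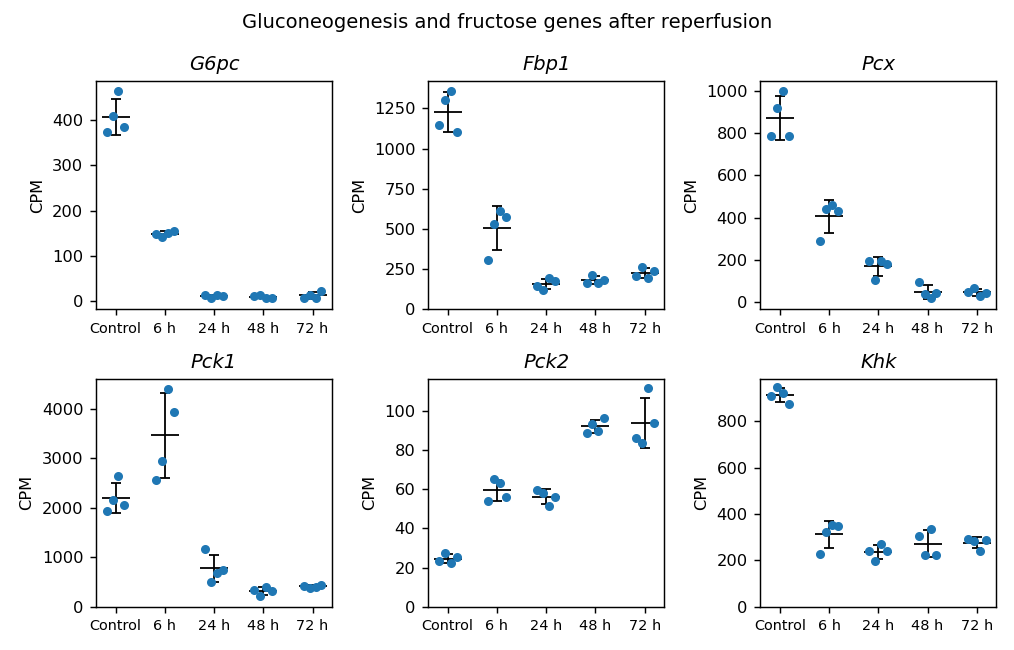
CPM (y axis, with 0 shown) of G6pc, Fbp1, Pcx, Pck1, Pck2 and Khk in Control and 6, 24, 48 and 72 h after reperfusion (x axis). Points are libraries, and bars are the mean and SD of 4. Pck2 is the 1 panel in which all injured libraries lie above Control, and Pck1 is highest at 6 h.

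Markers of the nephron segment that makes glucose fell at the same times. Markers of the thick ascending limb and distal convoluted tubule fell too, while those of the collecting duct did not fall at every time. Of 10 tested S1 and S2 proximal tubule markers, 5 fell at 6 h and 10 at each of 24, 48 and 72 h. Their summed level was 12219.5 to 15208 CPM in Control, 2401 to 7279 CPM at 6 h and 469 to 551 CPM at 72 h, and none was at 0. S3 markers summed to 1293 to 1498 CPM at 72 h, against 11690.3 to 14188 CPM in Control, and 7 of 8 fell at 6 h and 8 of 8 later. Of 6 thick ascending limb markers, 5, 5, 6 and 5 fell at 6, 24, 48 and 72 h, with a summed level of 5072 to 5546 CPM in Control, 291 to 543 CPM at 24 h and 632 to 718 CPM at 72 h. Of 4 distal convoluted tubule markers, 3, 2, 2 and 3 fell at these times, with a summed level of 583 to 687 CPM in Control, 368 to 494 CPM at 24 h and 38.6 to 72.0 CPM at 72 h, when Pvalb was at 0 in all 4 libraries. Collecting duct markers summed to 910 to 953 CPM in Control, 609 to 693 CPM at 6 h and 474 to 664 CPM at 72 h. At 24 h they summed to 873 to 1840 CPM and at 48 h to 760 to 1105 CPM, overlapping Control. How far the falls of G6pc, Fbp1, Pcx, Pck1 and Khk follow from the changes of these segment markers was not tested.

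Within single libraries, the balance between isoenzymes shifted. The log2 ratio of Pfkp to Pfkl (CPM + 1 in each) was −0.95 to −0.83 in Control, 0.98 to 1.13 at 24 h and 1.91 to 3.11 at 72 h. The log2 ratio of Eno3 to Eno1 was −7.87 to −7.54 in Control, −8.41 to −7.84 at 6 h and −2.53 to −1.82 at 72 h. For Pck2 to Pck1 it was −6.82 to −6.23 in Control, −4.26 to −3.09 at 24 h and −2.17 to −1.25 at 48 h. For Ldha to Ldhb it was −0.64 to −0.58 in Control, −0.42 to 0.61 at 6 h, −0.59 to −0.34 at 24 h, −0.46 to −0.07 at 48 h and −0.70 to −0.18 at 72 h, so that the 6 and 48 h libraries lay wholly above Control and those of 24 and 72 h overlapped it. These ratios compare read counts of genes of different length, so their changes and not their levels carry meaning.

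**Figure D3:**
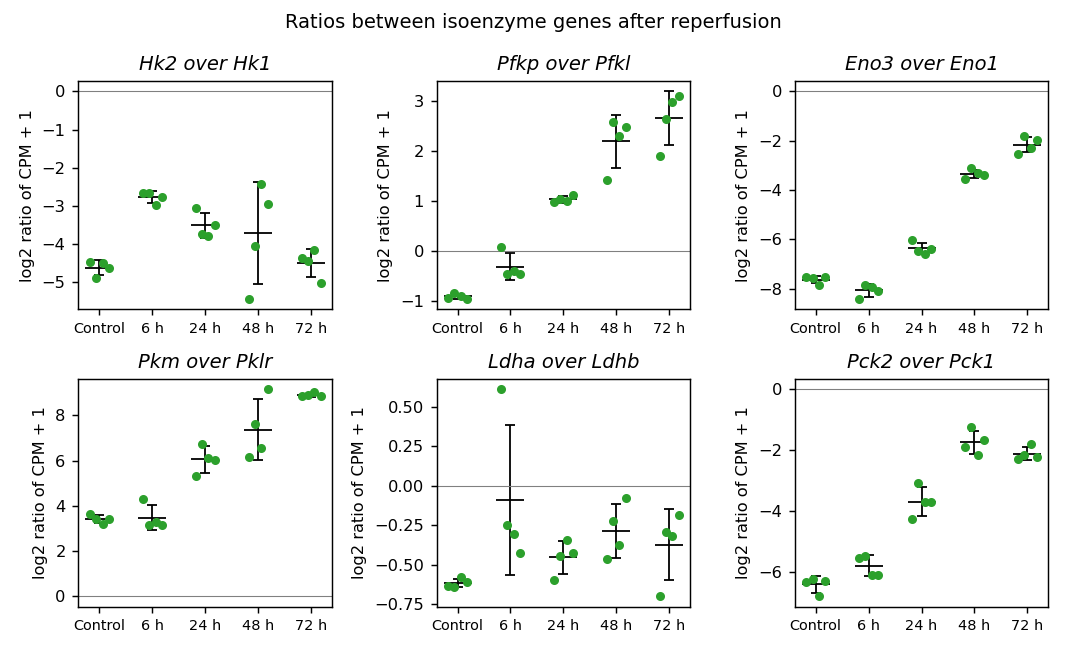
Log2 ratio of CPM + 1 between isoenzyme genes (y axis) in Control and 6, 24, 48 and 72 h after reperfusion (x axis). Points are libraries, bars the mean and SD of 4, and the grey line marks a ratio of 1. Pfkp over Pfkl lies above that line in all libraries from 24 h on and below it earlier except in IRI 6 h library 1, and Ldha over Ldhb lies below it in all but that same library.

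From one time to the next, more of the 36 were called between 6 and 24 h than later, and that step is also the one between the joined blocks. From 6 to 24 h, 4 of the 36 rose and 14 fell (of all genes, 14.9% higher and 13.9% lower), with the largest changes in G6pc (−3.67 ± 0.27), Pklr (−2.40 ± 0.47) and Pck1 (−2.16 ± 0.22). Within the later block, 3 rose and 11 fell between 24 and 48 h (of all genes, 9% higher and 12.1% lower). Eno3 rose by 1.80 ± 0.18, Pfkp by 0.98 ± 0.18 and Pck2 by 0.71 ± 0.13, while Pcx (−1.78 ± 0.33), Fbp2 (−1.40) and Eno1 (−1.29 ± 0.12) were among those that fell. Between 48 and 72 h, Eno3 was called higher (0.83 ± 0.17) and Pklr lower, 2 of 36 genes, where 2.04% of all genes were called higher and 3.63% lower. G6pc and Fbp1 were not called in either of these later steps.

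After surgery without ischaemia, the glucose-producing genes were also lower. At sham 24 h against sham control, 7 of the 36 rose and 16 fell, where 7.7% of all 17781 genes were called higher and 13.1% lower, and the median of the 36 was −0.41 beside 0.04 over all genes. Fbp1 had 54.8, 71.0, 109 and 96.5 CPM at sham 24 h, against 232, 453, 231 and 433 CPM in sham control (−2.02 ± 0.24, adjusted p = 1.8e-05). G6pc had 42.2, 43.8, 73.2 and 92.3 CPM at sham 24 h and 226, 211, 189 and 204 CPM in sham control (−1.72 ± 0.20). Neither gene's groups overlapped.

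Khk had 182, 189, 241 and 253 CPM at sham 24 h, against 491, 615, 506 and 528 CPM in sham control (−1.31 ± 0.12). Tpi1 had 132, 135, 172 and 174 CPM at sham 24 h and 289.5, 445, 330.0 and 433 CPM in sham control (−1.29 ± 0.14). Ldhb had 245, 284, 361 and 383 CPM at sham 24 h and 617, 884, 636 and 776 CPM in sham control (−1.19 ± 0.15). In all 3 the groups stood apart. Pck1 (−0.81 ± 0.22, a call lost without sham control library 1) and Pcx (−0.59 ± 0.11) also fell, and 8 of 10 S1 and S2 markers fell beside them, with a summed level of 3811 to 4994 CPM at sham 24 h and 7006 to 9877 CPM in sham control.

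The 7 that rose after sham surgery were Pdk4, Aldoc, Eno3, Hk1, Pdk1, Pkm and Pfkp. Pdk4 had 9.67, 13.1, 22.2 and 28.6 CPM at sham 24 h, against 11.0, 6.56, 13.4 and 5.07 CPM in sham control (1.03 ± 0.33), with overlapping groups, and the call was lost without sham control library 2 or 4 or sham 24 h library 3 or 4. Hk1 had 102, 91.2, 106 and 93.5 CPM at sham 24 h and 66.8, 69.0, 72.0 and 67.1 CPM in sham control, without overlap (0.51 ± 0.09). Pfkp had 43.6, 41.4, 44.0 and 41.2 CPM at sham 24 h and 34.4, 31.5, 35.0 and 30.4 CPM in sham control, also apart (0.37 ± 0.10, a call lost without sham control library 2 or 4). The calls of Eno3 (0.53) and Pdk1 (0.40) were each lost in 6 of 8 fits with 1 library left out, and that of Pkm (0.38) in 1 of 8. Hk2 was not called (−0.43), nor was Pck2 (0.27). The 10 most abundant genes took 45.3% to 52.2% of counts at sham 24 h and 34.0% to 40.4% in sham control, a shift in composition beside these values.

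To set ischaemia apart from surgery, the change at IRI 24 h over Control was set against the change at sham 24 h over sham control in 1 fit of both arms. The difference was called in 26 of the 36, 13 higher and 13 lower with ischaemia, where 24.8% of all 18563 genes were called higher and 20.1% lower. Its median was 0.25 over the 36 and 0.12 over all genes. The arms were deposited as separate tables, so levels across them are not compared. The change at IRI 24 h over Control also crosses the joined blocks, and subtracting the sham change does not take that out. A difference called with ischaemia therefore cannot be told apart from one between blocks.

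Among genes higher with ischaemia, Eno2 differed by 2.45 ± 0.50, Hk2 by 2.31 ± 0.41, Fbp2 by 2.05 ± 0.33, Pfkfb1 by 1.84 ± 0.60 and Aldoa by 1.46 ± 0.13. Fbp2 and Aldoa differed in sign: Fbp2 rose at IRI 24 h (1.18) and fell at sham 24 h (−0.77, with 3.73, 9.53, 7.98 and 6.88 CPM at sham 24 h and 12.0, 11.5, 11.9 and 12.8 CPM in sham control), and Aldoa rose at IRI 24 h (0.98) and fell at sham 24 h (−0.39). The call on Fbp2 in the sham arm was lost without sham control library 1, 2 or 4 or sham 24 h library 4. Eno1 (0.72), Gpi1 (0.84), Pfkp (0.95), Pkm (0.73) and Pck2 (1.01) were also higher. Of these, Eno1 and Gpi1 fell after sham surgery, with −0.71 to −0.50 and −0.57 to −0.44 over fits with 1 library left out. At IRI 24 h, Eno1 had 1098 to 1236 CPM, overlapping the 1065 to 1205 CPM of Control, and Gpi1 was not called over Control.

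Lower with ischaemia were G6pc (−3.30 ± 0.28, adjusted p = 2.6e-09), Aldoc (−2.70 ± 0.25), Pcx (−1.68 ± 0.22) and Pfkm (−1.56 ± 0.19). Aldoc had 20.7, 11.7, 18.9 and 19.3 CPM at sham 24 h, against 10.4, 8.91, 13.2 and 13.5 CPM in sham control, a rise (0.62) lost without sham control library 1, 2 or 3 or sham 24 h library 1, 3 or 4. For Fbp1 the difference was −0.84 ± 0.31 and for Khk −0.55 ± 0.17, smaller than their falls in either arm, and the Fbp1 call was lost without Control library 2 or 3 or IRI 24 h library 1 or 2 or sham control library 1 or 3 or sham 24 h library 3 or 4. Neither Pck1 (−0.61 ± 0.34, adjusted p = 0.15) nor Ldha (0.19) nor Tpi1 (0.40) was called.

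**Figure D4:**
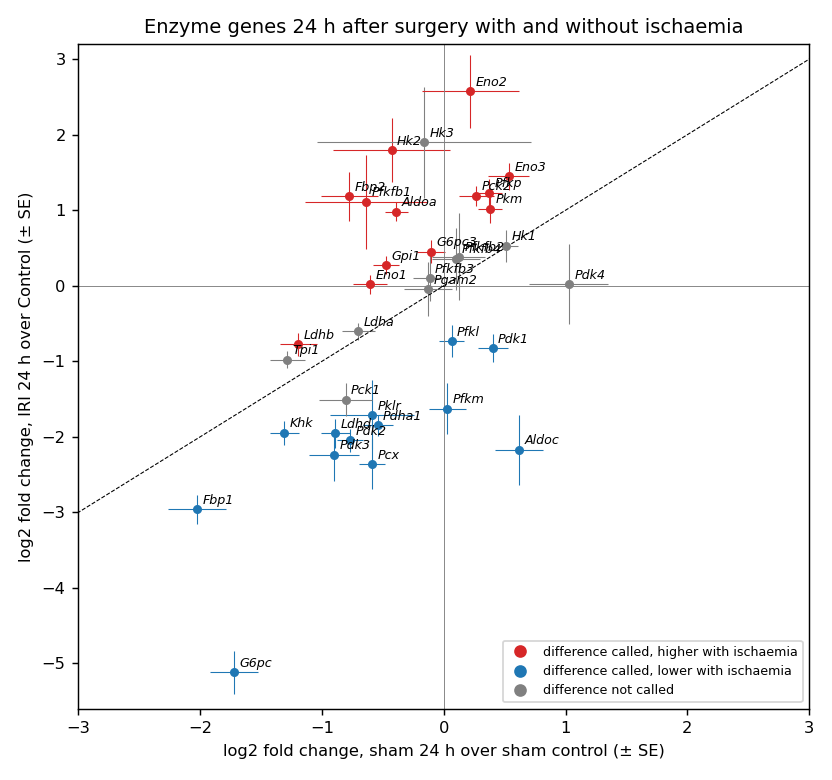
Log2 fold change of each enzyme gene at IRI 24 h over Control (y axis) against sham 24 h over sham control (x axis), with SE bars of both. The dashed line marks equal changes, red and blue points are genes whose difference was called higher or lower with ischaemia, and grey points were not called. Hk2, Eno2, Fbp2 and Aldoa lie above the line and G6pc, Aldoc and Pcx below it.

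In the therapy arm, kidneys given UC-MSC carried more RNA of Hk2, Pkm, Pfkfb3 and above all Pdk4 than Control. Against Control, 11 of the 36 were higher and 3 lower with UC-MSC (of all 16623 genes, 20.4% higher and 16.7% lower). With BM-MSC, 4 were higher and 2 lower (of all genes, 6.56% higher and 2.36% lower), and in AKI 12 and 4 (of all genes, 20% higher and 15.1% lower). The median of the 36 was 0.28 with UC-MSC, −0.05 with BM-MSC and 0.18 in AKI, beside 0.09, 0.04 and 0.06 over all genes. These counts depended on the libraries that stood apart. With the farthest library of UC-MSC, BM-MSC, AKI and IRI 6 h left out together, a choice made after seeing the data, 28 genes were called with UC-MSC (15 higher, 13 lower), 8 with BM-MSC and 26 in AKI (13 higher, 13 lower). The shares of all genes called then moved as well, to 26.5% higher and 24.2% lower with UC-MSC, 9.69% higher and 6.49% lower with BM-MSC and 27.5% higher and 27.8% lower in AKI.

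With UC-MSC over Control, Pdk4 had the largest log2 fold change of the 36. It had 218, 1286, 888 and 3437 CPM with UC-MSC, 74.9, 55.6, 76.6 and 104 CPM with BM-MSC, 532, 123, 56.3 and 144 CPM in AKI and 61.4, 39.9, 57.3 and 70.1 CPM in Control. All UC-MSC libraries lay above all of BM-MSC and Control, and 1 AKI library overlapped them. The log2 fold change of UC-MSC was 4.67 ± 0.76 over Control (adjusted p = 0.00028), 4.23 ± 0.74 over BM-MSC (0.002) and 2.77 ± 0.69 over AKI (0.005). Without the farthest libraries these were 3.76, 3.499 and 2.87, all still called. AKI was also called over Control (1.90 ± 0.67), a call lost without Control library 1, 2, 3 or 4 or AKI library 1.

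Hk2 had 43.6, 25.6, 31.5 and 13.96 CPM with UC-MSC, 7.14, 4.83, 6.89 and 25.3 CPM with BM-MSC, 33.7, 15.1, 14.7 and 20.7 CPM in AKI and 4.81, 3.31, 4.74 and 3.98 CPM in Control. It was higher than in Control with UC-MSC (2.77 ± 0.49) and in AKI (2.32 ± 0.48) but was not called with BM-MSC (1.39 ± 0.47, adjusted p = 0.076), where library 4 alone was raised. UC-MSC over BM-MSC was 1.37 ± 0.46, a call lost without BM-MSC library 1, 2 or 3 or UC-MSC library 1, 2 or 3; without the farthest libraries it was 2.39 (adjusted p = 7.1e-06).

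Pkm had 1147, 876, 985 and 587 CPM with UC-MSC, 345, 379.7, 392 and 663 CPM with BM-MSC, 446, 356, 377 and 414 CPM in AKI and 369, 354, 323 and 353 CPM in Control. The log2 fold change of UC-MSC was 1.36 ± 0.22 over Control, 1.01 ± 0.22 over BM-MSC and 1.17 ± 0.22 over AKI, with no overlap except for BM-MSC library 4. Pfkfb3 had 73.8, 82.5, 87.1 and 51.1 CPM with UC-MSC, 32.6, 30.2, 25.0 and 43.0 CPM with BM-MSC, 121, 56.0, 37.9 and 66.6 CPM in AKI and 34.6, 29.8, 32.2 and 38.4 CPM in Control. It was higher with UC-MSC than with BM-MSC (1.17 ± 0.28) or in Control (1.13 ± 0.28), and AKI was higher than Control (1.06 ± 0.28). The difference of UC-MSC from AKI was 0.07 ± 0.28 and not called.

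Other genes above Control with UC-MSC were Eno2 (1.42 ± 0.32, with 4.33, 3.47, 4.27 and 1.83 CPM with UC-MSC and 1.66, 0.780, 1.14 and 1.63 CPM in Control), Fbp2 (1.38 ± 0.35), Pklr (1.21 ± 0.23), Hk3, Pck1, Pfkp and Eno1. Fbp2 had 27.3, 58.3, 64.0 and 19.8 CPM with UC-MSC, against 19.2, 18.3, 14.3 and 13.4 CPM in Control, and Pklr 49.4, 87.4, 68.7 and 90.2 CPM with UC-MSC, against 29.2, 32.6, 34.3 and 32.1 CPM in Control. In all 3 genes every UC-MSC library lay above Control. Ldha was not called with all 4 libraries, though its UC-MSC libraries also lay above Control. It had 1206, 1142, 1221 and 1288 CPM with UC-MSC, 887, 1215, 1152 and 986 CPM in AKI and 919, 946, 985 and 909 CPM in Control. Lower with UC-MSC were Pfkm (−1.09 ± 0.15), Pdk3 (−1.003 ± 0.18) and Pgam2 (−0.73 ± 0.26, a call lost in 7 of 8 fits with 1 library left out). The Hk3 call (1.94 ± 0.60, 4.82, 1.74, 4.21 and 0.867 CPM with UC-MSC) was lost without Control library 1 or 4 or UC-MSC library 1 or 3. Neutrophil markers summed to 49.4 to 526 CPM with UC-MSC, 12.7 to 339 CPM with BM-MSC, 5.44 to 27.1 CPM in AKI and 2.71 to 4.70 CPM in Control, and their part in the Hk3 values was not tested.

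UC-MSC library 4 differed from its mates in the genes of glucose production and fructose use. Pcx had 337, 467, 383 and 1858 CPM with UC-MSC and 732, 847, 911 and 734 CPM in Control, and Khk had 272, 253, 222 and 1359 CPM with UC-MSC and 846, 872, 842 and 817 CPM in Control. For both genes, libraries 1 to 3 lay below and library 4 above the whole of Control, and neither was called in the 4 (−0.08 and −0.68). Without it, and without the other farthest libraries, Khk was −1.80 ± 0.13 (adjusted p = 4.4e-08) and Pcx −1.06 ± 0.14 (adjusted p = 1.9e-05). S3 markers summed to 1923 to 9825 CPM over the 4 UC-MSC libraries.

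With BM-MSC, the genes above Control were Hk3 (2.41 ± 0.60), Pck2 (1.21 ± 0.32), Pklr (1.11 ± 0.23) and Pck1 (1.01 ± 0.29), and those below it Pgam2 (−1.09 ± 0.27) and Ldhd (−0.94 ± 0.27). Pck2 had 48.9, 48.6, 55.01 and 58.5 CPM with BM-MSC and 21.6, 25.5, 20.5 and 23.5 CPM in Control, with no overlap, and Pklr had 62.0, 51.4, 91.3 and 72.4 CPM with BM-MSC. Of these calls, that of Pck2 was lost in 6 of 8 fits with 1 library left out, that of Pck1 in 7 of 8, that of Ldhd in 7 of 8, that of Hk3 in 4 of 8 and that of Pgam2 in 3 of 8. Pklr kept its call in all of them. With all 4 libraries, G6pc had 254, 631, 275 and 167 CPM with BM-MSC and 347, 376, 422 and 358 CPM in Control and was not called (−0.18 ± 0.59).

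Pck1 was above Control in all 3 injured groups. It had 2483, 5141, 2703 and 6191 CPM with UC-MSC, 5426, 3298, 4110.2 and 3533 CPM with BM-MSC, 3323, 4146, 3521 and 4863 CPM in AKI and 1811, 1991, 2409 and 1928 CPM in Control, so that every injured library exceeded the highest Control library. The log2 fold changes were 1.02 ± 0.29, 1.01 ± 0.29 and 0.96 ± 0.29, and the AKI call was lost without AKI library 4. No difference between the 3 injured groups was called, with UC-MSC over AKI at 0.06 ± 0.28 and BM-MSC over AKI at 0.05 ± 0.28.

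In AKI, library 1 set the values of several genes. G6pc had 523, 71.4, 83.5 and 100.2 CPM, Fbp1 922, 378, 371 and 387 CPM and Aldoa 909.7, 2099.6, 2088 and 2167 CPM, against 347, 376, 422 and 358 CPM, 1069, 1202, 1239.9 and 1029 CPM and 963, 982, 1069.7 and 1009 CPM in Control. Library 1 alone lay above Control in G6pc and below it in Aldoa. With it, AKI over Control was −0.95 ± 0.59 for G6pc (not called), −1.14 ± 0.39 for Fbp1 and 0.85 ± 0.22 for Aldoa. The Fbp1 call was lost without Control library 1, 2 or 3 or AKI library 2, 3 or 4. Without the farthest libraries the values were −2.17 ± 0.35, −1.61 ± 0.17 and 1.05 ± 0.11, all called. Aldoc was lower in AKI (11.0, 3.40, 2.44 and 7.75 CPM) than in Control (29.0, 23.5, 23.8 and 26.2 CPM) in every library (−2.06 ± 0.37), and Eno2 was higher (7.59, 5.77, 5.96 and 7.34 CPM in AKI, 2.35 ± 0.33).

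Set against AKI, 3 of the 36 were higher and 6 lower with BM-MSC (of all genes, 16.3% higher and 17.1% lower), and 5 were higher and 6 lower with UC-MSC (of all genes, 20.3% higher and 20.2% lower). These comparisons cross the joined blocks. BM-MSC was higher in Hk3 (2.001 ± 0.59, a call lost without BM-MSC library 4), Aldoc (1.15 ± 0.36) and Pfkm, and lower in Eno2 (−1.51 ± 0.31), Pgam2 (−1.50 ± 0.27), Aldoa (−1.15 ± 0.23), Pfkfb3 (−1.10 ± 0.28), G6pc3 and Gpi1. Beside Pdk4, UC-MSC was higher in Hk3 (1.54 ± 0.59), Aldoc (1.27 ± 0.36), Pkm and Hk1 (0.67 ± 0.20), and lower in Pgam2 (−1.14 ± 0.27), Pfkfb1 (−1.12 ± 0.35), Eno2 (−0.93 ± 0.31), G6pc3, Ldhb and Pdk3. With 1 library left out, BM-MSC over AKI lost the call of Pfkm in 6 of 8 fits, that of G6pc3 in 4 of 8 and that of Aldoc in 3 of 8. UC-MSC over AKI lost those of G6pc3 and Ldhb in 6 of 8 each, that of Hk3 in 5 of 8, that of Eno2 in 3 of 8 and that of Pfkfb1 in 1 of 8. Without the farthest libraries the counts were 7 higher and 10 lower for BM-MSC and 11 higher and 10 lower for UC-MSC, where the shares of all genes were 26.6% higher and 23.9% lower for BM-MSC and 29.8% higher and 28.6% lower for UC-MSC. G6pc was then higher than AKI with BM-MSC (2.21 ± 0.36, adjusted p = 0.00013).

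Between the cell sources, 6 genes were higher and 2 lower with UC-MSC than with BM-MSC, where 10% of all genes were called higher and 10.4% lower. Beside Pdk4, Hk2, Pfkfb3 and Pkm, Aldoa was higher (0.79 ± 0.22), with 1216, 1355, 1629 and 1473 CPM with UC-MSC and 771, 817, 893 and 802 CPM with BM-MSC, and so was Pfkp (0.53 ± 0.15). Pfkm (−0.75 ± 0.15) and Pdk3 (−0.60 ± 0.18) were lower. The calls of Aldoa, Pfkp and Pdk3 were lost in 3 of 8, 4 of 8 and 5 of 8 fits with 1 library left out. Without the farthest libraries 12 genes were higher and 9 lower with UC-MSC, where the shares of all genes were 17.3% higher and 18.5% lower.

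**Figure D5:**
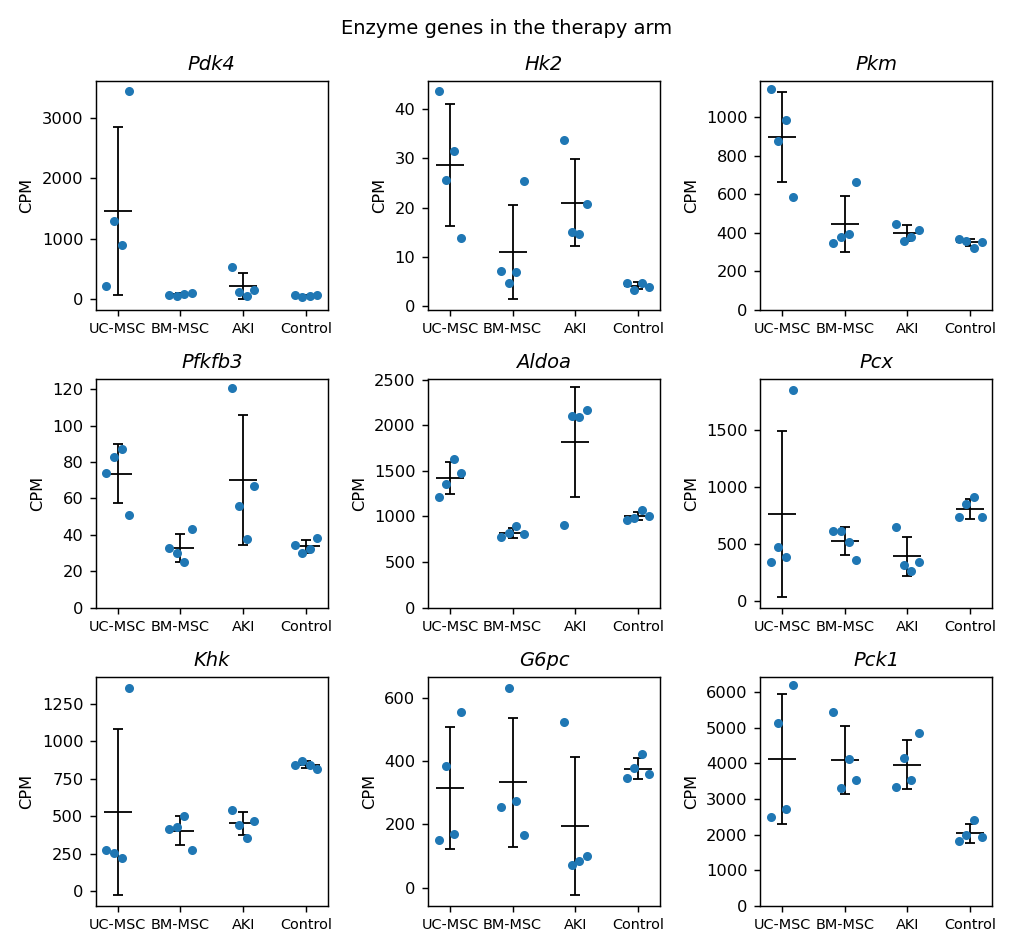
CPM (y axis, with 0 shown) of 9 enzyme genes in UC-MSC, BM-MSC, AKI and Control kidneys (x axis). Points are libraries, and bars are the mean and SD of 4. In Pdk4 all UC-MSC points lie above BM-MSC and Control, and single points stand far from their group in Pcx and Khk (UC-MSC library 4) and in G6pc and Aldoa (AKI library 1).

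The untreated kidneys of the temporal arm at 6 h gave a second comparison, in a fit of UC-MSC, BM-MSC, IRI 6 h and Control. With UC-MSC, 3 genes were higher and 2 lower than at IRI 6 h (of all 16490 genes, 11.7% higher and 11.4% lower). These were Pdk4 (3.68 ± 0.77, adjusted p = 0.005), Pfkfb3 (1.12 ± 0.23) and Pdk1 (0.77 ± 0.15), and Pck2 (−0.77 ± 0.12) and Pfkm (−0.46 ± 0.16), of which the Pfkm call was lost in 6 of 8 fits with 1 library left out. With BM-MSC, Pfkfb2 (1.00 ± 0.19) and Pdk1 (0.62 ± 0.15) were higher and Aldoa (−0.67 ± 0.15) lower, 3 genes where 1.01% of all genes were called higher and 1.55% lower. Each of these calls was lost in 5 or 6 of the 8 fits with 1 library left out. Pdk4 was thus called higher with UC-MSC than in each of the other 4 groups it was set against. Single libraries of the untreated injured groups overlapped UC-MSC. AKI library 1 had 532 CPM and IRI 6 h library 1 had 330.2 CPM in the temporal arm, beside 218 CPM in UC-MSC library 1.

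Other genes around the path were read from 8 lists chosen by function. Of 18 hypoxia-inducible genes outside the 36, 4 rose and 2 fell at 6 h, against 2 and 10 at 48 h and 1 and 11 at 72 h. Counts of these lists stand beside the shares of all genes called at the same times, which were 8.51% lower at 6 h, 20.2% at 24 h, 26.8% at 48 h and 29.6% at 72 h, and 10.4%, 21.8%, 26.9% and 26.7% higher. The lactate exporter Slc16a3 rose by 3.90 at 6 h and the glucose carrier Slc2a1 by 1.13, with the peptide hormone Adm at 1.70. With UC-MSC, 8 of the 18 were higher and 1 lower than in Control (of all genes, 20.4% higher and 16.7% lower). Against AKI, 7 were higher and 1 lower with UC-MSC (of all genes, 20.3% higher and 20.2% lower). Slc16a3 was higher by 5.21 than in Control and 4.48 than in AKI, and the stress gene Ddit4 by 2.50 and 2.33.

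The pentose phosphate path, which branches off at glucose 6-phosphate and supplies NADPH, was read from 8 genes. Of these, 4 rose at 6 h, 5 rose and 1 fell at 24 h, and 1 rose and 2 fell at 72 h. Pgd rose by 1.31 and G6pdx by 0.98 at 6 h, and Taldo1 by 1.67 at 24 h. In AKI, 6 of 8 were higher than in Control, led by Pgd (1.95), where 20% of all genes were called higher. Against sham surgery at 24 h, 7 of 8 were higher with ischaemia, led by Taldo1 (2.54), where 24.8% of all genes were called higher. After sham surgery 4 fell, where 13.1% of all genes were called lower.

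Of 13 glucose carriers, 1 rose and 10 fell at 24 h and 9 fell at 72 h. The log2 fold change of the basolateral exit Slc2a2 was −2.71 at 24 h and −4.24 at 72 h, and that of the fructose carrier Slc2a5 was −4.94 and −5.57. Of 7 other genes of the pyruvate dehydrogenase complex and its phosphatases, 5 fell at 6 h and 6 at each later time, with Pdp2 at −3.62 and Dld at −1.67 at 72 h. Of 8 tested genes of lactate and pyruvate transport, 6 fell at 24 h and 7 at 72 h, among them the sodium-coupled lactate carriers Slc5a8 (−4.73 at 24 h) and Slc5a12 (−4.38). In the fructose and polyol list, 5 of 8 fell at 6 h and 7 at 72 h, including sorbitol dehydrogenase Sord (−3.70 at 24 h).

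Of 13 tested glycogen genes, 1 rose and 7 fell at 24 h and 2 rose and 7 fell at 72 h. The liver synthase Gys2 fell (−3.65) and the phosphoglucomutase Pgm2 rose (1.35) at 24 h. Among 18 regulators, 5 rose and 9 fell at 24 h, and 5 rose and 12 fell at 72 h. Myc, an activator of glycolytic genes, rose by 2.86 at 6 h and 3.28 at 24 h. Hnf4a, a driver of G6pc and Pck1 transcription in liver, was −0.76 and not called at 6 h and fell by 72 h (−4.52). Hif1a was not called at 6 h (−0.12) and was higher than Control with UC-MSC (1.19).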

How the data were processed

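The deposited data are raw read counts of mouse kidney RNA-seq, in a table for each of the temporal, therapy and sham arms. The authors counted reads per gene with HTSeq on GRCm39 (mm39) and used DESeq2, per the submitters' processing notes; the aligner and strand setting are not given in the sources used here. The tables held 258137, 258140 and 56748 lines, in which names held by several gene IDs repeat, so repeats were collapsed to 1 value per name and library, the sum over its gene IDs. No column was left unused. From the temporal and therapy fits, 85 names were left out, 74 of them for differing Control counts.

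All groups of an arm entered 1 quasi-likelihood fit in edgeR 4.0.16 (R 4.3.3) after TMM scaling and filterByExpr, and genes were called at a two-sided Benjamini-Hochberg adjusted p under 0.05 over all genes tested (16653 temporal, 16623 therapy, 17781 sham). All 36 genes passed the filter in each fit. Both arms were fitted together (18563 genes) for the difference of differences between IRI 24 h and sham 24 h, and UC-MSC, BM-MSC, IRI 6 h and Control were fitted together (16490 genes). Standard errors are the log2 fold change over the square root of F. The procedure was tested on simulated data.

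The listed genes, the other lists and the tests were chosen with earlier results of these data known. Any of the 38 could be named; of each other list, up to 4 called genes with the largest change and up to 2 not called could be named in a comparison. Values in every library are given for the 8 called genes with the largest change and for partner isoenzymes. Alternatives were DESeq2 1.42.0, DESeq2's size factors or upper-quartile scaling in edgeR, the 10 most abundant names left out, no filter (a minimum of 1 count), the compared groups alone, the replicate number as a block, each library left out in turn and, added after seeing the data, the farthest library of 4 groups left out together. Exon lengths were taken from GENCODE M21 and promoter windows from RefSeq, both of GRCm38, by symbol, since the reference at hand is of another build than the counts. Python 3.11.15, pandas 2.3.3, numpy 2.4.6 and matplotlib 3.10.9 were used.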

Additional observations from a re-analysis of the deposited data

Results flagged for a closer look

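In groups of 4 libraries, a library was singled out where its gap to the nearest of the others exceeded Dixon's 95% critical value for 4 values, taken as a share of the group's range. Of 359 sets of 4 values with counts, 36 held such a library, where chance gives about 1 in 20. The values below are CPM, and the cause of these departures was not tested.

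Of the 36, 10 fell to library 1 of IRI 6 h, which had Hk1 at 232 CPM (others 112 to 123), Pfkp at 130.4 CPM (others 75.3 to 83.6) and Aldoa at 1689.6 CPM (others 1151 to 1219). The same library held Pkm at 1087 CPM (others 510.1 to 551), Ldhb at 801 CPM (others 1313 to 1401) and Ldhd at 572 CPM (others 893 to 939). It also held Pdk3 at 33.0 CPM (others 54.0 to 58.3), Pdk4 at 330.2 CPM (others 38.7 to 47.0) and Pcx at 290.3 CPM (others 432 to 460.5). Last came Fbp2 at 80.7 CPM (others 34.6 to 38.1).

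AKI library 1 stood out in 7 genes, with Gpi1 at 486 CPM (others 820.1 to 878), Pfkfb2 at 14.1 CPM (others 4.04 to 4.85) and Aldoa at 909.7 CPM (others 2088 to 2167). The same library held Eno1 at 919.9 CPM (others 1656 to 1776), Pdha1 at 621 CPM (others 301 to 326) and Fbp1 at 922 CPM (others 371 to 387). It also held G6pc at 523 CPM (others 71.4 to 100.2). UC-MSC library 4 stood out in 5, with Aldoc at 21.1 CPM (others 12.5 to 13.4), Ldhb at 1706 CPM (others 761 to 784) and Pdk2 at 519.8 CPM (others 114 to 146). The same library held Pcx at 1858 CPM (others 337 to 467) and Khk at 1359 CPM (others 222 to 272). BM-MSC library 4 stood out in 2, with Hk2 at 25.3 CPM (others 4.83 to 7.14) and Pkm at 663 CPM (others 345 to 392).

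Single departures stood in other libraries. IRI 6 h library 2 had Pfkfb1 at 4.73 CPM (others 3.22 to 3.37), and IRI 6 h library 4 had Pdk1 at 38.8 CPM (others 31.6 to 32.3). IRI 24 h library 1 had Ldhd at 562 CPM (others 434 to 449.7), and IRI 24 h library 2 had Pcx at 104 CPM (others 182 to 197). IRI 48 h library 1 had Pfkfb3 at 44.3 CPM (others 12.7 to 17.9), and IRI 48 h library 2 had Pdk3 at 35.4 CPM (others 12.0 to 14.4). IRI 72 h library 1 had Pfkfb1 at 14.9 CPM (others 1.00 to 1.85), and IRI 72 h library 1 had Pdk2 at 58.5 CPM (others 93.0 to 94.4). AKI library 4 had Pfkfb1 at 8.46 CPM (others 3.85 to 4.62), and AKI library 2 had Ldhb at 1667 CPM (others 1575 to 1590.3). BM-MSC library 3 had G6pc3 at 74.5 CPM (others 52.9 to 56.1), and UC-MSC library 3 had Eno3 at 8.55 CPM (others 4.33 to 5.02).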

How the results depend on the processing

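Of 246 changes called for single genes of the 36, none turned direction: over the settings other than a left-out library, 1635 of 1725 values kept their call and 90 lost it, and over fits without 1 library, 1907 of 2176 kept it and 269 lost it. Counts of genes called stayed within 1.5 times of those reported except for the following. With only the compared groups fitted, they were 27 for IRI 6 h over Control, 0 for IRI 72 h over 48 h (edgeR; 2 at an unadjusted p under 0.05, and 3 called by DESeq2 with all groups), 17 for BM-MSC over Control, 5 for BM-MSC and 3 for UC-MSC over AKI, and 0 for BM-MSC (edgeR; 9 at an unadjusted p under 0.05) and 3 for UC-MSC over IRI 6 h. With only the compared groups, calls over all genes moved too. They were 3980 higher and 3463 lower of 15504 for IRI 6 h over Control, against 1724 and 1417 of 16653 with all groups. For IRI 72 h over 48 h they were 20 and 4 of 14479, against 340 and 604. For BM-MSC over Control they were 2721 and 2249 of 15654, against 1090 and 393 of 16623. For BM-MSC over IRI 6 h they were 3 and 2 of 15682, against 167 and 256 of 16490. Among the 36, 1 gene was called for BM-MSC over IRI 6 h with no filter on low counts and 6 by DESeq2. With the farthest libraries left out together, the counts were 26 for AKI over Control, 28 for UC-MSC over Control, 17 for BM-MSC over AKI, 21 for UC-MSC over AKI, 21 for UC-MSC over BM-MSC, 7 for BM-MSC over IRI 6 h and 17 for UC-MSC over IRI 6 h. The shares of all genes over Control, over AKI and between the cell sources in that setting are given above. Over IRI 6 h they were 3.84% higher and 3.83% lower for BM-MSC and 21% higher and 19.8% lower for UC-MSC. The cause was not tested.

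Same-numbered libraries did not deviate together (correlations from −0.50 to 0.22, over 0.1 in 6 of 60 pairs). Such correlations cannot exclude a pairing behind the numbers, so whether these pair samples is not known. No paired analysis was possible because the sham control columns carry no sample label of their own, in the sham arm and for ischaemia against sham. With the replicate block, 3 genes were called for BM-MSC over Control and 0 for BM-MSC over IRI 6 h (edgeR; 7 at an unadjusted p under 0.05).

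With 1 library left out, the count ranged from 12 to 14 at 6 h, 25 to 27 at 24 h, 22 to 26 at 48 h and 22 to 24 at 72 h over Control, from 15 to 22 for 24 over 6 h, 12 to 15 for 48 over 24 h and 2 to 4 for 72 over 48 h. It ranged from 12 to 22 for UC-MSC, 1 to 7 for BM-MSC and 11 to 21 for AKI over Control, from 6 to 17 for UC-MSC and 6 to 13 for BM-MSC over AKI, from 4 to 13 for UC-MSC over BM-MSC, from 4 to 9 for UC-MSC and 0 to 4 for BM-MSC over IRI 6 h, from 17 to 22 in the sham arm and from 24 to 28 for ischaemia against sham. Moves over 1.5 times came without IRI 48 h library 2 or IRI 72 h library 1 (4 each, 72 over 48 h), without UC-MSC library 4 (22 over Control, 13 over BM-MSC), without AKI library 1 (17) or 4 (6) for UC-MSC over AKI, and without BM-MSC library 1 or 2 or UC-MSC library 3 (4 each) for UC-MSC over BM-MSC. For BM-MSC over Control they came without any Control library (2 each) or BM-MSC library 1 (3), 3 (3) or 4 (1). For UC-MSC over IRI 6 h they came without UC-MSC library 1 (9) or IRI 6 h library 1 (8), and for BM-MSC over IRI 6 h without BM-MSC library 1 or 2 or IRI 6 h library 1, 2 or 3 (0 each by edgeR, 6 to 13 at an unadjusted p under 0.05). Calls over all genes moved in some of these fits. For BM-MSC over Control they were 493 to 881 higher and 89 to 202 lower, against 1090 and 393 with all libraries. For BM-MSC over IRI 6 h they were 2 higher and 0 to 3 lower, against 167 and 256. Without AKI library 1, UC-MSC over AKI had 4670 and 4351, against 3378 and 3351. Without UC-MSC library 4, UC-MSC over Control had 3368 and 2947, against 3396 and 2776. Depth at 72 h, 4640921 to 5366202 counts, limits how exactly genes under a few CPM, such as Pklr and Hk3, are measured. For Pklr the floor over the group was 0.161 CPM, far below the Control mean of 34.6 CPM.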

Other observations

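The 2 skipped genes could be read in the sham table alone, where no second copy of the counts allows a check of their names. Under the name Pgk1, phosphoglycerate kinase, sham 24 h was lower than sham control (−0.98 ± 0.15, n = 4 each, adjusted p = 0.00016 in edgeR). Under Pgam1, the mutase of most tissues, the difference was −0.38 ± 0.16 and not called (adjusted p = 0.097).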
